A study of Mus musculus with 8 samples.

Results

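The genes described here serve the lysosome, the acid compartment in which cells break down proteins, sugars and lipids. They were chosen by gene name: 14 acid hydrolases, 2 further proteins of the lumen, 7 membrane proteins, 13 genes of the proton pump, and Tfeb and Tfe3, transcription factors of lysosomal genes. All 38 had a row among the 54232 gene rows of the expression table. The filter on low values, at least 1 normalized count in at least 3 of 6 libraries, was passed by 37 of the 38 and by 19054 genes in all. The exception was Ctsf, a cysteine protease, which had 0 reads in every library, allowing up to 3 reads a library (counting error only).

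Lysosomal hydrolases work only in acid, and the acid is made by the V-ATPase, a rotary pump whose V1 sector splits ATP and whose V0 sector carries protons across the membrane. TFEB and TFE3 are kept in the cytosol when mTORC1 phosphorylates them; once released into the nucleus they bind letters centred on CACGTG near the starts of many lysosomal genes. Their activity is set largely by where the protein sits, which RNA sequencing does not measure. Autophagy, the subject of the series, ends in the lysosome, where the autophagosome's content is digested.

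RNA was sequenced from 3 libraries of cells held with C28 for 3 h and from 3 libraries held with the solvent DMSO. C28, spelled 028 in the sample names, is a code-named compound whose dose the sources used here do not give. All libraries came from mouse cells of C57BL/6 background labelled female germline stem cells; no other allele or agent is named. Whether the replicates were separate cultures is not stated, so p-values speak only to library-to-library spread, part of which could be technical.

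The libraries held 16930212 to 17428321 reads with C28 and 18613916 to 19197376 with DMSO. Several germ cell markers were absent or nearly so: the RNA helicase Ddx4 lay between 0 and 1.91 normalized counts in every library, Dazl had 1 read in all, and Dppa3 and Pou5f1 had 0. Others of the germline list had reads: Ifitm3 lay between 80.4 and 285, Zbtb16 between 7.2 and 74.8, and Prdm1 between 0 and 11.4. Kit, the stem cell factor receptor of blood and germ cells, lay between 17499.7 and 24074, Gata2, a blood and mast cell transcription factor, between 21760 and 26194, and Ptprc, the leukocyte protein CD45, between 6568 and 8917. The mast cell enzyme Cpa3 lay between 5016 and 8401, while Fcer1a and Tpsb2, also mast cell genes, had 0 reads. The summed mast cell and basophil list was at 52122 to 54483 normalized counts with C28 and 57612 to 58381 with DMSO, without overlap; 7 of its 10 genes passed the filter. Kit (fold 0.899) and Gata2 (0.894), which other blood cells also express, make up most of that sum and carried the gap. Both were lower with C28 in all 3 pairs, with adjusted p 0.107 for Kit and 0.0745 for Gata2 by limma with the replicate number as a block, and 0.0378 and 0.0196 by edgeR with it. The rest of the list did not share that direction: the median log2 fold change was 0.00, 4 of 7 genes were above 0, and Il1rl1, Hdc and Cma1 had folds of 1.04, 1.09 and 1.11, none called. The part of these genes in the differences below was not tested.

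The promoters of many of these genes carry the letters that TFEB and TFE3 recognise. In RefSeq promoter windows of 250 bases before to 50 after each start (GRCm38.p6), 33 of the 38 genes had a window. CACGTG, which reads the same on both strands, was found for 15 of the 33 (45.5%), against 7.15% of all 32851 windows and 11.1% of the tested genes with a window. The longer TCACGTGA, which contains CACGTG, was found for 8 of the 33 (24.2%), against 0.974% of all windows and 1.96% of the tested genes with a window. A match is a description of the letters and not a sign that either factor was bound. The 8 genes with TCACGTGA are shown so that the element can be seen in its context, 30 bases each, 5′ to 3′ on the gene's strand, with the element in capitals.
Ctsa, chr2:164833766-164833795, plus strand: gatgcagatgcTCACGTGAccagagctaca
Ctsd, chr7:142387908-142387937, minus strand: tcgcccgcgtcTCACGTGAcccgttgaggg
Gla, chrX:134601182-134601211, minus strand: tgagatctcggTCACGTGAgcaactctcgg
Mcoln1, chr8:3500462-3500491, plus strand: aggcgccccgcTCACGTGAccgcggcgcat
Clcn7, chr17:25133386-25133415, plus strand: ccgatgatagaTCACGTGAgacctgggcgc
Atp6v0d1, chr8:105566050-105566079, minus strand: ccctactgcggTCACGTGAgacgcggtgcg
Atp6v0e, chr17:26676387-26676416, plus strand: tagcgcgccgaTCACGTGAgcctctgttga
Atp6v1a, chr16:44139373-44139402, minus strand: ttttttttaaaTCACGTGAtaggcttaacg

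The position of the element differed between genes. Its first base lay at position -195 from the start in Gla, -132 in Atp6v1a, -99 in Ctsd, -46 in Mcoln1 and -4 in Atp6v0d1, where -1 is the last base before the start. In Atp6v0e, Ctsa and Clcn7 it began at base 3, 5 and 7 after the start, counting the start as base 1. Ctsa and Gla held the element at 2 places in the window, and the copy nearest the start is shown. The 100 bases before the start of Mcoln1, a lysosomal calcium channel gene, are set beside those of Gusb. Of the members, Gusb had the smallest p-value by limma with the replicate number as a block, given below. Of the tested members with a window, 18 had no CACGTG, so Gusb is 1 of many and the pair serves only as an example. The bases show CACGTG, in capitals, at 2 places before Mcoln1, while the Gusb window holds none.
Mcoln1, chr8:3500419-3500518, plus strand: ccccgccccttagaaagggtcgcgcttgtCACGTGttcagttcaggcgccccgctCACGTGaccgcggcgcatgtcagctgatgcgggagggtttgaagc
Gusb, chr5:130003050-130003149, minus strand: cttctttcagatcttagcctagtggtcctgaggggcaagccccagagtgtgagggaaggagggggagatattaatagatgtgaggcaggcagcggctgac

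The question put to the members was whether cells given C28 held more or less RNA of lysosomal genes after 3 h than cells given DMSO. No member passed the test in either direction: limma on log2(normalized count + 1) called 0 of 37 at an adjusted p under 0.05 (Benjamini-Hochberg over all 19054 genes), where 0.136% of all tested genes were called. At an unadjusted p under 0.05 there was 1 member, Atp6v0b, against 7.83% of all tested genes. edgeR and DESeq2 called 0 members as well, where edgeR called 0.147% and DESeq2 0.955% of all tested genes. In bulk RNA, fewer cells of a type and less RNA per cell cannot be told apart, so each difference given here is one of RNA per library.

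Libraries of the same replicate number deviated together from their group means, and standard errors of all 37 members were smaller once the number entered the fit. Replicates 2 and 3 also deviated together across numbers, to a lesser degree. With that number as a block, limma called 1 of 37 members, Gusb, which fell; the same fit called 4.80% of all tested genes, 2.55% as higher and 2.25% as lower. Of the tested genes averaging at least 50 normalized counts, 8.23% were called. edgeR with the block called 4 of 37, with Tfe3, Atp6v0b and Ctsd higher and Gusb lower, against 6.99% of all tested genes (3.71% higher and 3.28% lower). Of the 10572 tested genes averaging at least 50, edgeR with the block called 656 as higher and 602 as lower. With the block, limma called 1 member, Gusb, after TMM scaling (4.55% of all tested genes) and 0 after quantile normalization (1.41%). At an unadjusted p under 0.05, 9 of 37 members (24.3%) differed in limma's fit with the block, 8 of them higher with C28; the shares were 18.2% of all tested genes (9.02% higher and 9.15% lower) and 26.7% of those averaging at least 50. For both directions together the members' share lay between these background shares. For the higher direction alone it was 21.6%, above the 9.02% of all tested genes and the 12.4% of those averaging at least 50.

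**Figure D1:**
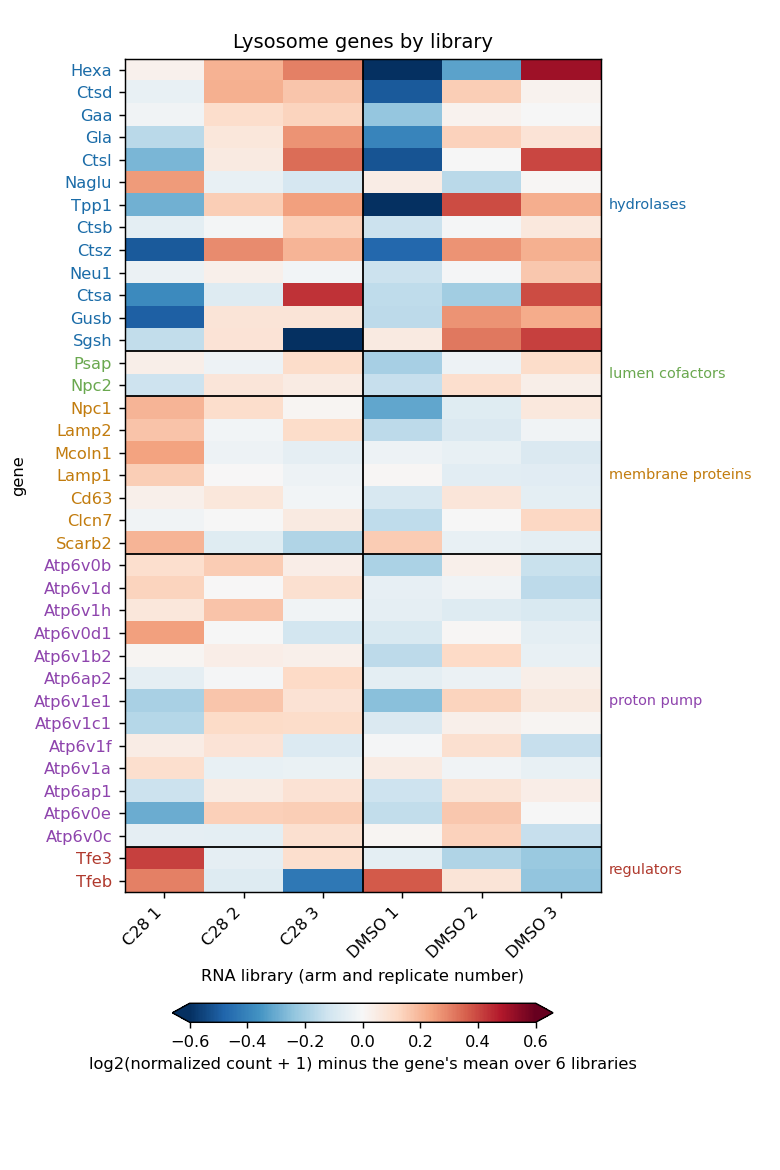
Each cell gives a member's log2 deviation from its own mean over the 6 libraries, with the 3 C28 libraries left of the 3 DMSO libraries and genes ordered by role (37 tested members; the colour scale ends at 0.6 either way). Columns of the same replicate number look alike in many hydrolases, as in Ctsz, Ctsl and Gusb, while Lamp2, Atp6v0b, Atp6v1d, Atp6v1h and Tfe3 are higher in every C28 library than in any DMSO library.

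The members' differences were small and leaned to the higher side. Lysosomal genes outside the members, given below, did not all share that lean: 41.9% of other hydrolases and 53.8% of other membrane proteins were above 0. The share was 70.6% for other pump subunits and assembly factors. The log2 fold change of C28 over DMSO was above 0 for 27 of 37 members (73%), against 51.0% of all tested genes and 47.8% of those averaging at least 50. That count rests on differences close to 0. For 23 of the 37 members the sign changed when some single library was left out without the block. Its median was 0.05 over the members, 0.00 over all tested genes and -0.01 over those averaging at least 50. By role, the median was 0.07 over 13 hydrolases, 0.04 over the 2 other lumen proteins, 0.08 over 7 membrane proteins, 0.04 over 13 pump genes and 0.08 over the 2 regulators. The hydrolase median was -0.09 without DMSO replicate 1 and 0.19 without C28 replicate 1 and 0.17 without DMSO replicate 3, while it was -0.01 without C28 replicate 3 and, with the block, 0.0046 without pair 1. The membrane protein median was 0.037 without C28 replicate 1 and, with the block, 0.022 without pair 1. The pump median also moved with replicate 1 of DMSO (0.02 when it was left out), replicate 2 of DMSO (0.09 when left out) and replicate 1 of C28 (0.077 when left out), and with the block it was 0.018 without pair 3. All 3 C28 libraries lay above all 3 DMSO libraries for 5 members (13.5%), against 8.16% of all tested genes and 7.61% of those averaging at least 50. They lay below all 3 DMSO libraries for 0 members, against 6.49% of all tested genes and 8.81% of those averaging at least 50. By same-numbered pairs, 12 members (32.4%) were higher with C28 in all 3, against 20.6% of all tested genes and 22.4% of those averaging at least 50. Lower in all 3 were 3 members (Gusb, Sgsh and Tfeb), against 18.8% of all tested genes and 25.6% of those averaging at least 50. The 95% interval of the log2 fold change stayed within 0.5 either way for 35 of 37 members with the block (94.6%), the exceptions being Hexa and Sgsh, and for 26 of 37 (70.3%) without it. With the block, that share was 47.2% of all tested genes and 85.0% of those averaging at least 50.

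**Figure D2:**
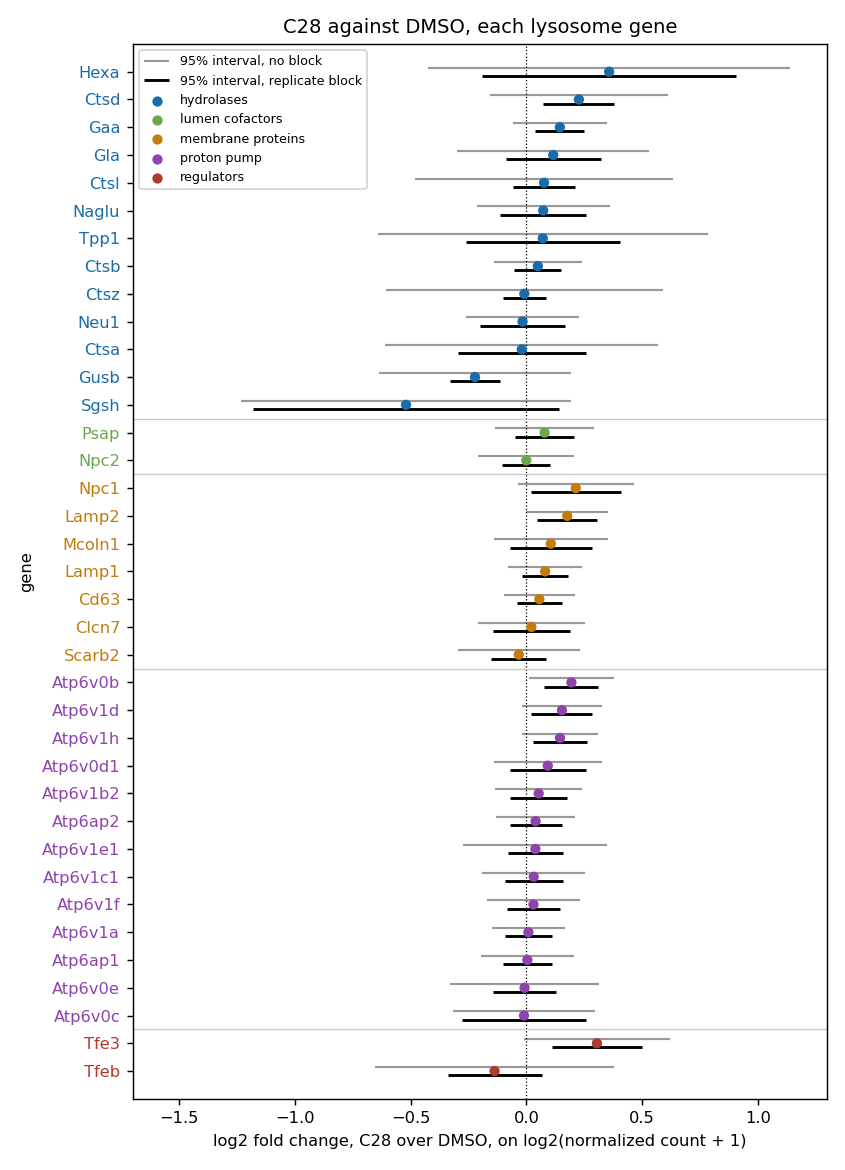
Log2 fold changes of C28 over DMSO with 95% intervals from limma, without the block in grey and with the replicate block in black, for the 37 tested members by role. Without the block Atp6v0b has an interval above 0 (0.01 to 0.38), while with it the interval of Gusb lies at -0.33 to -0.11.

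**Figure D3:**
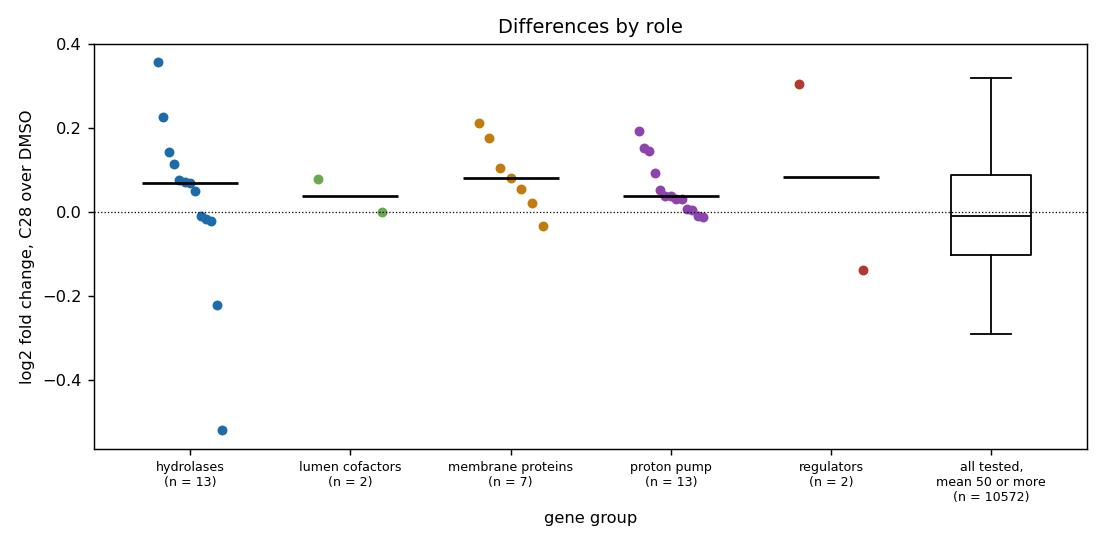
Each dot is a member's log2 fold change of C28 over DMSO, grouped by role, with a bar at the role's median; the box at the edge shows the quartiles and 5% to 95% range of the 10572 tested genes averaging at least 50 normalized counts. The role medians lie between 0.04 and 0.08, beside -0.01 for those genes.

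Members with and without the CACGTG letters had similar medians, which were not tested against each other. The median log2 fold change was 0.08 over 14 tested members with CACGTG and 0.03 over 18 without it; for TCACGTGA it was 0.06 over 8 and 0.05 over 24. Over all tested genes with a window, the 222 that held TCACGTGA had a median of 0.01 and 0 calls by limma without the block. With the block, 8 of these 222 were higher and 1 lower (4.05%), beside 4.80% of all tested genes (2.55% higher and 2.25% lower). The 1256 with CACGTG had a median of -0.01 and 3 calls without the block, and with it 35 were higher and 43 lower (6.21%). With the block, the share called was 8.23% of the tested genes averaging at least 50. The share among all tested genes with a window was not computed, so these shares have no like background.

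Among the hydrolases, beta-glucuronidase, encoded by Gusb and trimming sugars from proteoglycans, had the smallest p-value with the block. Gusb stood at 2889.9, 4288 and 4292 normalized counts with C28 (replicates 1 to 3) and at 3640.4, 4896 and 4737 with DMSO. Both replicate 1 libraries were low, so that the groups overlapped, yet each C28 library was below the DMSO library of its number. The means were 3823 ± 808 with C28 and 4424 ± 684 with DMSO (SD, n = 3 each), a fold of 0.857 on the log2(value + 1) scale. The log2 fold change was -0.22 (limma SE 0.18 without the block, 0.05 with it), and limma's adjusted p was 0.87 without the block and 0.028 with it. With the block and without pair 1, 2 or 3, limma's adjusted p was 0.0354, 0.305 or 0.168, and with quantile normalization 0.0775, so the call depended on these choices.

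Cathepsin D, an aspartic protease and one of the main proteases of the lysosome, is encoded by Ctsd. Ctsd stood at 2805, 3353 and 3248 normalized counts with C28 and 2035, 3200.1 and 2928 with DMSO. Its log2 fold change was 0.23, with adjusted p 0.85 by limma without the block, 0.101 by limma with it and 0.0247 by edgeR with it. The low DMSO replicate 1 library gave the largest of the 3 pair differences (0.46, beside 0.07 and 0.15), and the groups overlapped. Gaa, which breaks down glycogen and is lost in Pompe disease, stood at 2788, 3043 and 3102 with C28 and 2406, 2871 and 2822 with DMSO. Its groups overlapped, its log2 fold change was 0.14 (SE 0.09 without the block), and limma's adjusted p was 0.788 without the block and 0.128 with it.

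Cathepsins B, L and Z, cysteine proteases, differed little between the groups. Ctsb stood at 2848, 2941 and 3276 normalized counts with C28 and 2711, 2953 and 3095 with DMSO. The groups overlapped closely, with a log2 fold change of 0.05 (95% interval -0.14 to 0.24 without the block) and a limma adjusted p of 0.96. Ctsz stood at 3679.6, 6359 and 6016 with C28 and 3768, 6294 and 6048 with DMSO. Each C28 library was close to the DMSO library of its number, and with the block the 95% interval was -0.10 to 0.08 on the log2 scale. Ctsl had a log2 fold change of 0.08 (limma adjusted p = 0.989 without the block, 0.564 with it).

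Among the remaining hydrolases, Hexa and Sgsh had the fewest reads and the widest intervals. Hexa, a subunit of the enzyme lost in Tay-Sachs disease, stood at 41.5, 47.2 and 50.4 normalized counts with C28 and 24.3, 32.4 and 58.4 with DMSO. The DMSO values spanned those of C28, and limma's log2 fold change of 0.36 had a block interval of -0.19 to 0.91. Sgsh, which removes sulfate from heparan sulfate, stood at 21.8, 25.8 and 14.4 with C28 and 25.2, 30.4 and 32.5 with DMSO. It was lower in all 3 pairs, but the groups overlapped, and the log2 fold change was -0.52 (limma adjusted p = 0.774 without the block, 0.405 with it). Ctsa, Gla, Neu1, Naglu and Tpp1, a protease, a galactosidase, a sialidase, a glucosaminidase and a peptidase, had log2 fold changes between -0.02 and 0.12, none called.

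In the lumen, Psap, the precursor of the saposins that help hydrolases reach lipids, stood at 2201, 2103 and 2322 normalized counts with C28 and 1873, 2103 and 2318 with DMSO. DMSO replicate 1 alone was low, and the log2 fold change was 0.08 (limma adjusted p = 0.928). Npc2, which hands cholesterol to NPC1, stood at 2089.9, 2399 and 2363 with C28 and 2074, 2447 and 2337 with DMSO. Its values were nearly the same in the groups, with a block interval of -0.10 to 0.10 on the log2 scale.

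Of the membrane proteins, Lamp2, a glycoprotein of the lysosomal membrane needed for autophagosome clearance and chaperone-mediated autophagy, was the one without overlap. Lamp2 stood at 2298, 2014 and 2204 normalized counts with C28 and 1832, 1920.2 and 2009.8 with DMSO. The gap between the groups was narrow, C28 replicate 2 being just above DMSO replicate 3. The log2 fold change was 0.18 (SE 0.08 without the block, 0.06 with it), with limma adjusted p 0.639 without the block and 0.13 with it. Lamp1, its close relative, stood at 4989, 4509 and 4399 with C28 and 4525, 4305 and 4295 with DMSO, higher in all 3 pairs but overlapping. Its log2 fold change was 0.08 (SE 0.07), with limma adjusted p 0.879 without the block and 0.377 with it.

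Npc1, which exports cholesterol from the lysosome, stood at 1624, 1517 and 1426 normalized counts with C28 and 1137, 1345 and 1475 with DMSO. The third pair went the other way, and the log2 fold change of 0.21 had a limma adjusted p of 0.728 without the block and 0.233 with it. Mcoln1, whose calcium release activates calcineurin and through it TFEB, stood at 563, 467 and 458 with C28 and 467, 462 and 449 with DMSO. Only the replicate 1 pair was clearly apart, and the log2 fold change was 0.11 (limma adjusted p = 0.906). The tetraspanin gene Cd63 stood at 5549.5, 5706 and 5375 with C28 and 5086, 5716 and 5211 with DMSO, overlapping, at 0.06 on the log2 scale (limma adjusted p = 0.93). Scarb2 and Clcn7, the receptor that carries glucocerebrosidase to the lysosome and a chloride-proton exchanger, were at -0.03 and 0.02.

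In the proton pump, 11 of 13 genes (84.6%) had log2 fold changes above 0, none called by limma. The shares were 51.0% of all tested genes and 47.8% of those averaging at least 50. Of these 11, only Atp6v0b, Atp6v1d and Atp6v1h stayed above 0 whichever single library was left out without the block. Atp6v0b, a proteolipid of the proton-carrying V0 ring, stood at 2065, 2145 and 1979 normalized counts with C28 and 1687, 1971 and 1759 with DMSO. All C28 libraries were above all DMSO libraries, by a narrow gap. The log2 fold change was 0.19 (SE 0.08 without the block, 0.05 with it), and its adjusted p was 0.63 by limma without the block, 0.0684 by limma with it and 0.0319 by edgeR with it. Atp6v1d, in the rotor stalk, stood at 1502, 1374 and 1463 with C28 and 1323, 1350.2 and 1227 with DMSO, also without overlap. Atp6v1h, a regulatory subunit of V1, stood at 2308, 2479 and 2166 with C28 and 2123, 2089 and 2066 with DMSO, again without overlap. Both had a log2 fold change of 0.15, with limma adjusted p of 0.198 for Atp6v1d and 0.163 for Atp6v1h with the block.

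Other subunits hardly differed between the groups. The catalytic V1 subunit gene Atp6v1a stood at 2773, 2505 and 2514 normalized counts with C28 and 2676, 2552 and 2512 with DMSO. Its values overlapped throughout, with a block interval of -0.09 to 0.11 on the log2 scale. Atp6v0d1, which joins V0 to the stalk, stood at 1706, 1437 and 1333 with C28 and 1351, 1446 and 1380.3 with DMSO; C28 replicate 1 alone was high, and limma's adjusted p was 0.916. Atp6v0c, the main proteolipid of the ring, stood at 172, 172 and 191 with C28 and 180.4, 197 and 163 with DMSO, overlapping. The pseudogene Atp6v0c-ps2 averaged 895 normalized counts over the 6 libraries, against 179 for Atp6v0c, and Cd63-ps averaged 679, so reads of Atp6v0c and Cd63 may have been split with these copies. The other 7 pump genes had log2 fold changes between -0.01 and 0.05.

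The regulators differed in direction. Tfe3 stood at 515, 372 and 415 normalized counts with C28 and 372, 342 and 332 with DMSO. C28 replicate 1 was the highest library, and C28 replicate 2 was only just above DMSO replicate 1. The log2 fold change was 0.30 (SE 0.14 without the block, 0.09 with it), and its adjusted p was 0.659 by limma without the block, 0.0858 by limma with it and 0.0366 by edgeR with it. Tfeb stood at 322, 247 and 193 with C28 and 337, 275 and 221 with DMSO. Each C28 library was a little below the DMSO library of its number, but the values of both groups were highest in replicate 1 and lowest in replicate 3. The log2 fold change was -0.14 (95% interval -0.66 to 0.38 without the block, -0.34 to 0.07 with it), with limma adjusted p 0.958 without the block and 0.479 with it.

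Of the other 2 genes of this factor family, Mitf, the melanocyte and mast cell member, stood at 1092, 1185 and 1075 with C28 and 1297, 1192 and 1247 with DMSO. All C28 libraries were below all DMSO libraries, and limma's log2 fold change of -0.16 had an adjusted p of 0.705 without the block and 0.212 with it. Tfec had 0 reads in every library.

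**Figure D4:**
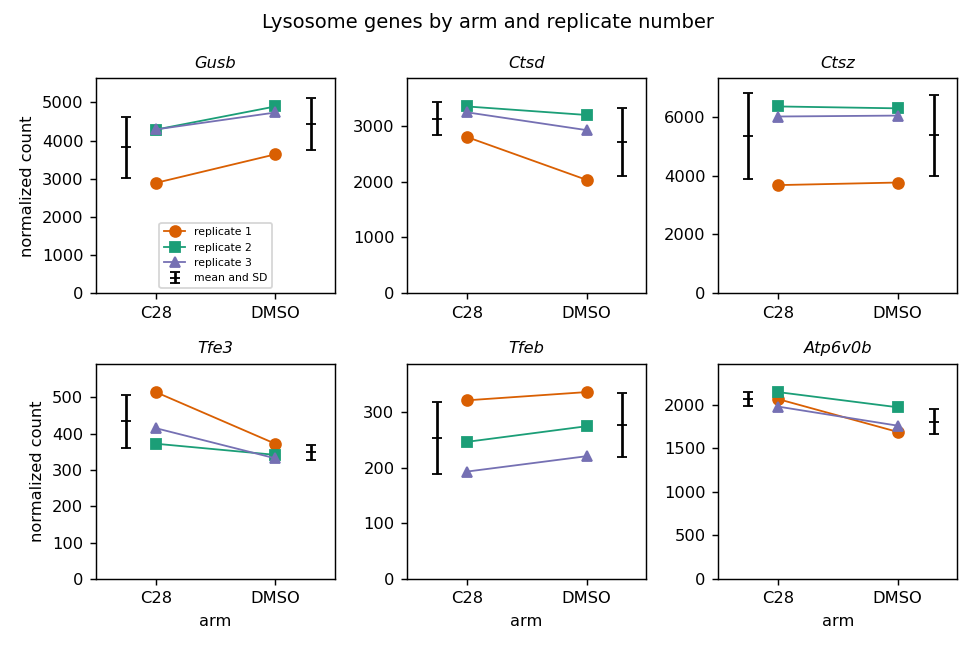
Normalized counts of 6 members in every library, C28 left and DMSO right, with lines joining libraries of the same replicate number and the mean and SD beside them (n = 3 each). In Gusb all 3 lines are lower at C28, in Tfe3 and Atp6v0b all 3 are higher, and in Ctsz they are nearly level.

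More members were called by replicate number than by treatment, and the same held for all tested genes. Of those, limma called 3100 by number, against 26 by treatment without the block and 914 with it. Limma's F test of the number, beside treatment, called 12 of 37 members (32.4%), against 16.3% of all tested genes and 26.0% of those averaging at least 50. edgeR called 14 members, against 20.2% of all tested genes and 3375 of the 10572 averaging at least 50. Of limma's 12, 7 were hydrolases: Ctsa, Ctsd, Ctsl, Ctsz, Gla, Gusb and Tpp1. The means of replicates 1, 2 and 3 over both groups were 3724, 6327 and 6032 normalized counts for Ctsz (limma adjusted p = 6.63e-06), 1812, 2419 and 3070 for Ctsl (0.000177) and 329, 261 and 207 for Tfeb (0.00615). Both replicate 1 libraries were below the other 4 for 9 of 13 tested hydrolases and for 16 of 37 members (43.2%), against 17.1% of all tested genes and 21.1% of those averaging at least 50. They were above the other 4 for 5 members (13.5%), against 16.9% of all tested genes and 22.3% of those averaging at least 50.

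Markers of other cell types differed along the same replicate numbers, and some also with treatment. In the mast cell and basophil list, limma's F test of the number called 6 of 7 tested genes, all but Gata2. Both replicate 1 libraries were below the other 4 for 5 of the 7 and above them for 1, Kit. The widest gap was in Hdc, at 2.08, 113 and 117 normalized counts with C28 and 1.87, 112 and 97.6 with DMSO. The same test called 6 of 7 tested genes in each of the 2 lists below. The summed fibroblast and feeder list, 7 of 8 genes tested, was at 1121, 1726 and 2811 normalized counts with C28 and 1070, 1976 and 2700 with DMSO, lowest in replicate 1 of each group, with Lum at 0 reads in 5 libraries. Most of that sum was Dcn, a matrix proteoglycan gene. The sum averaged 1886 with C28 and 1915 with DMSO. The list's median log2 fold change was -0.27, with 5 of 7 genes below 0. Dcn (fold 1.06) and Pdgfra (1.07) were above 0, and neither was called. Lower with C28 in all 3 pairs were 4 of 7 genes, against 18.8% of all tested genes and 25.6% of those averaging at least 50. Pdgfrb, a growth factor receptor of fibroblasts and pericytes, stood at 40.5, 161 and 174 normalized counts with C28 and 52.4, 257 and 277 with DMSO. It fell with the block (log2 fold change -0.57, adjusted p 0.0352 by limma and 0.00321 by edgeR), while limma's adjusted p without the block was 0.948.

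The leukocyte and macrophage list, 7 of 8 genes tested, did not follow 1 replicate pattern. Its sum was 11576, 10985 and 10659.9 normalized counts with C28 and 10720.2, 10516 and 10575 with DMSO, highest in replicate 1 of each group. Ptprc and Fcer1g were higher in both replicate 1 libraries than in the other 4, while Adgre1, Cd68, Lyz2 and Tyrobp were lower in both. The macrophage receptor gene Csf1r was between 0.935 and 3.83 in every library. The part of the cells these lists mark in the members' replicate pattern and treatment differences was not tested.

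Lysosomal genes outside the members were read from 6 lists, other hydrolases, membrane proteins, pump subunits and assembly factors, control of Tfeb and Tfe3, delivery of hydrolases, and lysosome damage. Without the block limma and edgeR called 0 of their 119 tested genes; DESeq2 called 1, Mcoln2. Limma with the block called 5, of which 4 rose and 1 fell, against 4.80% of all tested genes and 8.23% of those averaging at least 50. edgeR with the block called 7, the same 5 with Slc36a1 and Lgals3, against 6.99% of all tested genes. The median log2 fold changes of the lists lay between -0.01 for other hydrolases and 0.12 for lysosome damage. The share of genes above 0 was 41.9% for other hydrolases, 53.8% for membrane proteins and 70.6% for pump subunits and assembly factors. It was 57.9% for control of Tfeb and Tfe3, 53.3% for delivery of hydrolases and 81.8% for lysosome damage, against 51.0% of all tested genes. In the list for control of Tfeb and Tfe3, 4 of 19 tested genes (21.1%) had all C28 libraries below all DMSO libraries, against 6.49% of all tested genes. These were Mitf, Fnip2, Rraga and Rragb, none called, and 0 genes had all C28 libraries above. By pairs, 7 genes were higher in all 3 and 6 lower in all 3.

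Mcoln2, a cation channel of the same family as Mcoln1, stood at 1092, 1372 and 1137 normalized counts with C28 and 688, 941 and 782 with DMSO. The groups did not overlap, and the 3 pair differences were 0.67, 0.54 and 0.54 on the log2 scale. The fold was 1.5, and limma's adjusted p was 0.296 without the block and 0.000407 with it. Atp6v0a1, the large membrane subunit of V0, stood at 784, 1007 and 1003 with C28 and 579.6, 751 and 759 with DMSO. C28 replicate 1 was only just above the highest DMSO library, and all 3 pairs differed by a similar amount (0.44, 0.42 and 0.40). The fold was 1.34, with limma adjusted p 0.519 without the block and 0.00273 with it.

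Of the lysosome damage list, limma with the block called 2 of 11 tested genes, Trim16 and Lgals8. The same fit called 4.80% of all tested genes and 8.23% of those averaging at least 50. The list was chosen with earlier results of these data known. Trim16, a ubiquitin ligase recruited to damaged lysosomes, stood at 607, 363 and 411 normalized counts with C28 and 335, 236 and 266 with DMSO. The groups did not overlap, the fold was 1.63, and limma's adjusted p was 0.454 without the block and 0.00125 with it. Lgals8, a galectin that marks broken vesicles, stood at 974, 654 and 766 with C28 and 774, 514 and 566 with DMSO. Its groups overlapped, but each C28 library was above the DMSO library of its number; the fold was 1.29, with limma adjusted p 0.733 without the block and 0.00838 with it. The other 9 were not called by limma, and their log2 fold changes ran from -0.25 for Lrrk2 and -0.08 for Pdcd6, over 0.00 for Vcp and 0.02 for Chmp4b and Fbxo27, to 0.25 for Lgals3.

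The genes that edgeR alone called with the block had limma adjusted p of 0.0723 each with it. Lgals3, another galectin of damaged vesicles, stood at 1163, 732 and 750.3 normalized counts with C28 and 929, 689 and 588 with DMSO. Its groups overlapped, with a fold of 1.19 and an edgeR adjusted p of 0.0314 with the block. Slc36a1, an amino acid transporter of the lysosomal membrane, stood at 718, 508 and 476 with C28 and 478, 442 and 417 with DMSO. C28 replicate 1 was well above the rest, and the groups overlapped narrowly, with a fold of 1.25 and an edgeR adjusted p of 0.0192 with the block.

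Gga3, an adaptor that carries hydrolases from the Golgi, stood at 841, 754 and 886 normalized counts with C28 and 1004, 955 and 991 with DMSO, without overlap. The fold was 0.839, with limma adjusted p 0.515 without the block and 0.0438 with it. Without pair 2, limma's adjusted p with the block was 0.0531 for Mcoln2, 0.0623 for Trim16, 0.132 for Atp6v0a1, 0.167 for Lgals8 and 0.404 for Gga3. Without pair 3 it was 0.0658 for Atp6v0a1, 0.141 for Lgals8 and 0.174 for Gga3, and without pair 1 it was 0.0787 for Gga3.

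**Figure D5:**
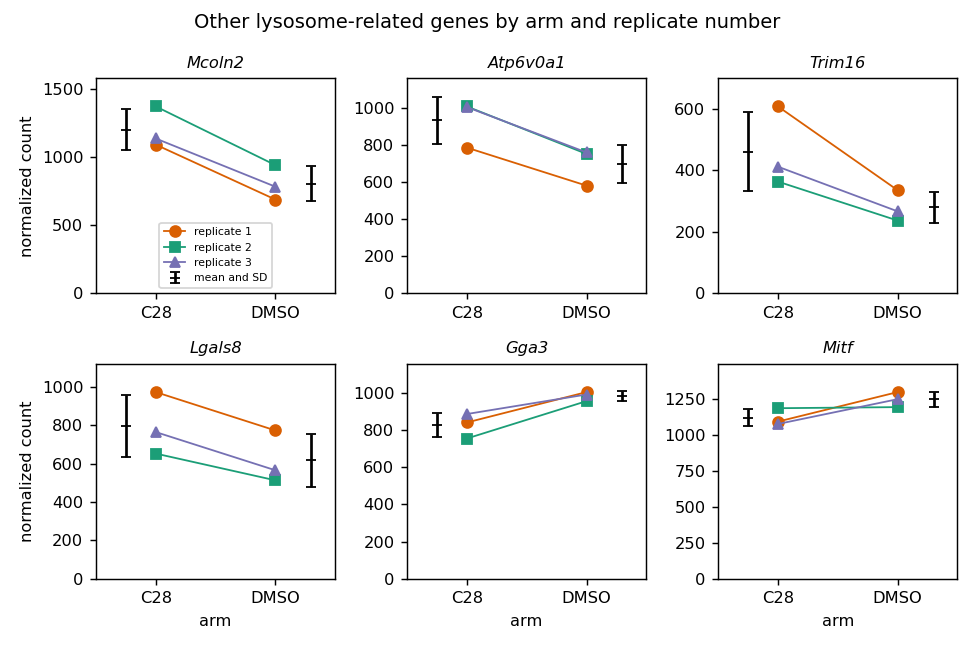
Normalized counts of Mcoln2, Atp6v0a1, Trim16, Lgals8, Gga3 and Mitf, which are not among the members, in every library, C28 left and DMSO right, with lines joining libraries of the same replicate number and the mean and SD (n = 3 each). The lines of Mcoln2, Atp6v0a1, Trim16 and Lgals8 are higher at C28, and those of Gga3 are lower.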

How the data were processed

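The authors deposited one table of normalized counts per gene for the 6 RNA libraries, a signal in which each library's reads are divided by a size factor. The submitters' processing notes name Bowtie2, Cufflinks 2.2.1 and mm9 with no role; no source used here gives the counting tool or its strand setting. Of the values, 100% gave whole reads within 0.01 when divided by the value of 1 read (0.935 to 1.07). Gene names came from the deposited table for 24187 rows and from an identifier table for 29950.

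The members and lists were chosen with earlier results of these data known. Genes with at least 1 normalized count in at least 3 libraries were tested with limma 3.58.1 (trend) in R 4.3.3 on log2(value + 1), a log2 scale computed here from the deposited values, which understates changes of low genes; for a repeated name the highest row was kept. p-values were adjusted by Benjamini-Hochberg over 19054 genes. edgeR 4.0.16 and DESeq2 1.42.0 on the recovered reads were alternatives, as were other pseudocounts, filters and scalings, leaving out each library, and the replicate number as a block. The limma script was tested on simulated data. Over 10572 genes averaging at least 50, deviations from the group means correlated at 0.84, 0.68 and 0.71 for replicates 1, 2 and 3. C28 replicate 3 with DMSO replicate 2 gave 0.54, and C28 replicate 2 with DMSO replicate 3 gave 0.41. Unlike numbers involving a replicate 1 library gave -0.75 to -0.65, so replicates 2 and 3 were less clearly separated from each other than from replicate 1. No label states a pairing, so it comes from the data.

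Values are printed for members at an unadjusted p under 0.05, for a fixed set of key genes and for the highest and lowest of each role, and, from the other lists, for genes called, Mitf and Tfec. Promoter letters came from RefSeq windows (GRCm38.p6), searched with Python 3.11.15. In RefSeq, 7 members (Ctsa, Ctsz, Atp6v1b2, Hexa, Sgsh, Ctsb and Npc1) overlap another protein-coding gene, so their reads may be uncertain. In the authors' deposited table of fold changes and p-values, the smallest adjusted p-value among members was 0.675, for Tfe3. H3K27ac peaks, on mm9, were not analysed here.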

Additional observations from a re-analysis of the deposited data

How the results depend on the processing

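No member was called under any scaling, filter, pseudocount or left-out library without the replicate block, and the median of the members stayed between 0.01 and 0.09 when single libraries were left out. With the replicate number as a block, limma called 1 member (914 of all tested genes, 5 of the other lists) and edgeR 4 (1332 and 7). Leaving out pair 1, 2 or 3, limma with the block called 1, 0 or 0 members, 853, 50 or 207 of all genes and 6, 0 or 2 of the other lists. With the block, TMM scaling gave 1, 867 and 4, and quantile normalization 0, 269 and 4; these combinations and replicates 2 and 3 alone (91 of all genes) were chosen after seeing the data. Without the block, the 26 genes called became 0 to 23 on leaving out a library, 5 without the filter (53967 genes tested, most with no variance) and 182 by DESeq2, which called 1 of the other lists; the replicate number called 4 members without the filter, against 12. A few members near 0 changed sign: Ctsz was 0.0073 with quantile normalization, with or without the block; Npc2 was 0.0018 with TMM and 0.012 with quantile normalization, either way, 0.0011 by edgeR and 0.0017 by edgeR with the block; Atp6v0e was 0.0033 by edgeR and 0.00092 by DESeq2. With the block and without pair 1, the log2 fold change was 0.085 for Ctsa, -0.0063 for Ctsl, 0.0036 for Ctsz, -0.11 for Tpp1, -0.034 for Clcn7, 0.018 for Atp6v0c, -0.030 for Atp6v0d1, 0.064 for Atp6v0e, -0.013 for Atp6v1a and -0.0052 for Atp6v1b2. Without pair 2 it was 0.013 for Npc2 and 0.083 for Atp6v0c, and without pair 3 it was 0.065 for Neu1, 0.012 for Scarb2, -0.0018 for Atp6v1c1 and -0.016 for Atp6ap1. Leaving out single libraries without the block turned 23 members, whose log2 fold changes then spanned -0.24 to 0.17 for Ctsa, -0.010 to 0.092 for Ctsb, -0.16 to 0.30 for Ctsl, -0.25 to 0.24 for Ctsz, -0.052 to 0.23 for Gla, -0.086 to 0.060 for Neu1, -0.037 to 0.14 for Naglu, -0.27 to 0.28 for Tpp1, -0.00057 to 0.15 for Psap, -0.069 to 0.062 for Npc2, -0.14 to 0.050 for Scarb2, -0.050 to 0.088 for Clcn7, -0.081 to 0.056 for Atp6v0c, -0.0083 to 0.17 for Atp6v0d1, -0.083 to 0.14 for Atp6v0e, -0.039 to 0.035 for Atp6v1a, -0.012 to 0.13 for Atp6v1b2, -0.017 to 0.13 for Atp6v1c1, -0.078 to 0.15 for Atp6v1e1, -0.031 to 0.087 for Atp6v1f, -0.056 to 0.070 for Atp6ap1, -0.011 to 0.077 for Atp6ap2 and -0.32 to 0.043 for Tfeb. None of these was called, and the cause was not tested. Low reads limit Hexa and Sgsh most. The H3K27ac alternatives were not run.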
